A study of Mus musculus with 4 samples.

Results

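The T cell receptor complex and its coreceptors were followed through 9 genes, Cd3d, Cd3e, Cd3g, Cd247, Cd2, Lck, Cd4, Cd8a and Cd8b1, out of 51826 gene rows in a table of sequenced RNA from mouse mammary tumours. Each gene was found by matching its Ensembl identifier, without the version, to its symbol in the GENCODE annotation of GRCm38, and all 9 had a row. The tumours came in 2 genotypes. Elf5+/- tumours (HET) had a single intact copy of Elf5 and gave 2 libraries, HET 1 and HET 2. Elf5+/+ tumours (WT) had both copies intact and gave 2 libraries, WT 1 and WT 2. All 4 tumours were C3-T+, a designation that the labels do not explain, and the labels used here give no age, strain or treatment. Before RNA extraction the dissociated tumours were sorted with antibodies to CD45 (leukocytes), CD31 (endothelium) and TER119 (erythroid cells) to enrich tumour cells, so RNA of T cells in these libraries is what remained beside the enriched cells. Both HET titles carry the number 3211, with tumour numbers 1 and 2, whereas the WT titles carry 3210 and 4972. Whether the number names an animal is not stated, and if it does, HET stands for 1 animal. The unadjusted p-values below then describe how far these 4 libraries differ and not how far animals do.

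A T cell recognises antigen through a variable receptor chain pair that has almost no intracellular part of its own. The signal passes through the invariant chains CD3 delta, epsilon and gamma and the zeta chain encoded by Cd247, whose tyrosines are phosphorylated by the kinase LCK and then bind ZAP70. The coreceptors CD4 and CD8 bring LCK to the receptor when it meets MHC class II or class I on another cell. In tumours these transcripts are commonly read as a measure of T cell infiltration, while Cd4 and Cd8a are in mice also transcribed by subsets of dendritic cells, and Cd2 and the zeta chain also by natural killer cells.

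The 9 genes were chosen by their place in the receptor complex, but with their HET and WT levels in these libraries already known. Their differences between genotypes are therefore given as a description, with no test. Library totals lay between 12695132 and 15307939 counts. Levels are in CPM, counts relative to the library total, with totals scaled by the trimmed mean of M values (TMM) to correct for differences in composition. Markers of mammary epithelium were abundant in every library, with summed levels of 2651 CPM in HET 1, 2377 in HET 2, 3771 in WT 1 and 3517 in the library labelled WT 2. Elf5 itself, which encodes an ETS transcription factor of luminal progenitors, stood at 5.39 and 10.6 CPM in HET 1 and HET 2, against 35.6 CPM in WT 1 and 4.70 in the library labelled WT 2. Elf5 in that library lay below both HET libraries, so every HET over WT value that includes it takes its genotype from the label alone. The same library stood apart in leukocyte RNA: Ptprc, which encodes CD45, was at 73.4 and 66.1 CPM in HET 1 and HET 2, against 62.1 CPM in WT 1 and 2.85 in the library labelled WT 2. In bulk RNA, fewer cells of a type and less RNA per cell cannot be told apart.

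RefSeq windows of the 250 bases before annotated starts (GRCm38.p6) were found for 6 of the 9 genes, 7 windows in all because Lck had 2 starts. Cd2, Cd4 and Cd8b1 had no entry. The windows of the 3 CD3 genes on chromosome 9 are printed because these genes lie together and all had higher values in HET, and the inner start of Lck because Lck did not share that pattern. Capitals mark AGGAAG or its reverse complement, the core bound by ETS factors with its flanks.
Cd3d (chr9:44981536-44981785, plus strand): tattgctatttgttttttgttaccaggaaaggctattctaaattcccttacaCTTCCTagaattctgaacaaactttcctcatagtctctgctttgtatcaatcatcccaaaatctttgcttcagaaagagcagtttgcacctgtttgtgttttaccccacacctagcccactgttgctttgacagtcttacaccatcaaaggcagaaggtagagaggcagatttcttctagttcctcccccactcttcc
Cd3g (chr9:44980432-44980681, minus strand): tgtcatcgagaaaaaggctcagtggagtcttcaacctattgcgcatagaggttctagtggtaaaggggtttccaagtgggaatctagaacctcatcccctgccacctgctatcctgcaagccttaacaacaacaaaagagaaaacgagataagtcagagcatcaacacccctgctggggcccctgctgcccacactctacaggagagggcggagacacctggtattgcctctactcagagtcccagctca
Cd3e (chr9:45009612-45009861, minus strand): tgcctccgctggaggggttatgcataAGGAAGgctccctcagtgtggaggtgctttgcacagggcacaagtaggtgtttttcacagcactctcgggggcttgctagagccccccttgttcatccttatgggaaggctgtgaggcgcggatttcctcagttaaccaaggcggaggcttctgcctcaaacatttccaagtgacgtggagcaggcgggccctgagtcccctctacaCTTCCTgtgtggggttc
Lck, inner start (chr4:129558373-129558622, minus strand): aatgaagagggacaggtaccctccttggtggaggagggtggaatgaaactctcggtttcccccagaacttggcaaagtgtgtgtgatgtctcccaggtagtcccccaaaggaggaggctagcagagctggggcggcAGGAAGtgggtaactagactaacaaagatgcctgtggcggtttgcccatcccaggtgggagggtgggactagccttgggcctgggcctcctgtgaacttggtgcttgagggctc
The starts of Cd3g and Cd3d lay 1355 bases apart and point away from each other. AGGAAG on either strand was present in 5 of the 7 windows, against 29.5% of 32851 windows of the same length in the table. The E-box CACCTG, searched on both strands, was in 4 of the 7 windows and in 17.2% of all windows, and in no printed window did it share a base with AGGAAG. Cd3e held 2 copies of AGGAAG and Cd3g held 0. The inner start of Lck held 1 copy, and its outer start, which is not printed, held 3. Both motifs were chosen after the sequences were seen, and a match is a description of letters, not of a bound site.

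For each signalling chain of the receptor, both HET values lay above both WT values, an order found in 19.6% of the 21607 genes tested. Cd3d (ENSMUSG00000032094.8, chromosome 9, 44981786 to 44987339, plus strand), the delta chain, had 11.2 and 12.5 CPM in HET 1 and HET 2, against 2.70 CPM in WT 1 and 2.56 in the library labelled WT 2. Its values lay close together within each genotype, and it had the smallest SE among the 9 genes at a log2 fold change of 2.16 ± 0.46 (SE, n = 2 libraries per genotype). Cd3e (ENSMUSG00000032093.7, chromosome 9, 44998740 to 45009627, minus strand), the epsilon chain that pairs with delta and gamma, had 6.82 and 8.61 CPM in HET, against 2.86 CPM in WT 1 and 1.07 in the library labelled WT 2. The HET libraries were above both others, and the WT libraries differed from each other by 2.68-fold. The log2 fold change of Cd3e was 1.97 ± 0.65 (SE).

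Cd3g (ENSMUSG00000002033.14, chromosome 9, 44969572 to 44980431, minus strand), the gamma chain, had the largest log2 fold change of the 9 genes. It stood at 8.83 and 7.42 CPM in HET 1 and HET 2, against 0.955 CPM in WT 1 and 0.214 in the library labelled WT 2, the last resting on 3 counts. Summed over libraries, 236 HET counts stood against 15 WT counts, a ratio of 14.5 with an exact 95% interval of 8.61 to 26.3 that covers counting error only. The fitted log2 fold change was 3.79 ± 0.81 (SE). Cd247 (ENSMUSG00000005763.15, chromosome 1, 165788681 to 165877277, plus strand), the zeta chain, had 2.40 and 2.08 CPM in HET, against 0.239 and 0.214 CPM in WT. Both WT values rest on 3 counts, and the ratio of 65 to 6 counts was 9.98 with an interval of 4.35 to 28.2. The span of Cd247 overlaps Pou2f1 on the opposite strand, and since the strandedness of the libraries is not given in the sources used here, reads in shared bases cannot be told apart. Against WT 1 alone, the ratio of counts was 8.56 for Cd3g (counting interval 4.81 to 16.8) and 9.43 for Cd247 (3.09 to 46.9).

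**Figure D1:**
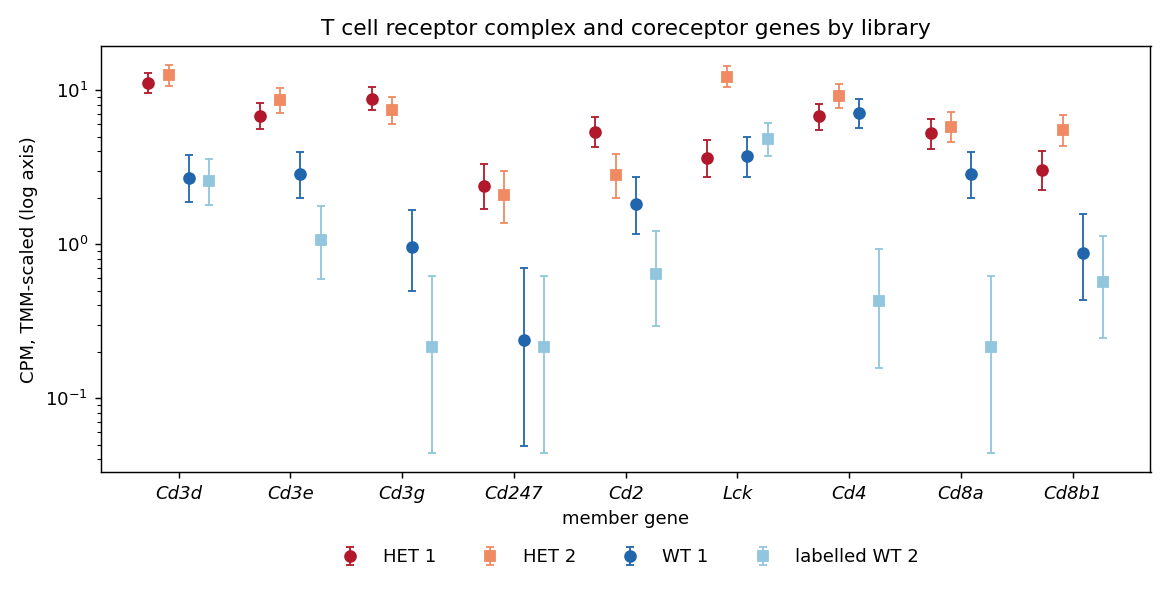
CPM (TMM-scaled, log axis) of the 9 genes in each library, with exact 95% Poisson intervals of the counts, which cover counting error only. The 4 CD3 and zeta chain genes have both HET libraries above both WT libraries, an order found in 19.6% of all genes tested. Lck and Cd4 overlap between genotypes.

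Cd2 (ENSMUSG00000027863.8, chromosome 3, 101275899 to 101287939, minus strand), an adhesion and costimulatory receptor that binds CD48 in mice, had 5.39 and 2.82 CPM in HET 1 and HET 2, against 1.83 CPM in WT 1 and 0.641 in the library labelled WT 2. The groups did not overlap, but HET 2 lay nearer to WT 1 than to HET 1. The log2 fold change of Cd2 was 1.73 ± 0.77 (SE), and 1.16 ± 0.72 without the library labelled WT 2. Lck (ENSMUSG00000000409.14, chromosome 4, 129548344 to 129573641, minus strand), the kinase that starts receptor signalling, had 3.64 and 12.2 CPM in HET 1 and HET 2, against 3.74 CPM in WT 1 and 4.84 in the library labelled WT 2. HET 2 alone was high, and HET 1 was the lowest of the 4 libraries. The log2 fold change of Lck was 0.88 ± 0.68 (SE) and turned to -0.31 without HET 2. Lck was the only one of the 9 genes for which the library labelled WT 2 was not the lowest.

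The coreceptors divided. Cd4 (ENSMUSG00000023274.14, chromosome 6, 124864692 to 124888221, minus strand), which binds MHC class II, had 6.75 and 9.20 CPM in HET 1 and HET 2, against 7.08 CPM in WT 1 and 0.427 in the library labelled WT 2. WT 1 lay between the HET libraries, and the log2 fold change of 1.09 ± 1.09 (SE) became 0.17 ± 0.51 without the library labelled WT 2. Cd8a (ENSMUSG00000053977.13, chromosome 6, 71373427 to 71379173, plus strand), the CD8 chain found in both CD8 alpha homodimers and CD8 alpha-beta dimers, had 5.26 and 5.79 CPM in HET, against 2.86 CPM in WT 1 and 0.214 in the library labelled WT 2. Its groups did not overlap, and its log2 fold change of 1.85 ± 1.06 (SE) became 0.94 ± 0.58 without that library, which held 3 counts. Summed over libraries, 159 HET counts stood against 39 WT counts, a ratio of 3.76 (counting interval 2.63 to 5.48), and against WT 1 alone the ratio was 1.92 (1.33 to 2.84). Cd8b1 (ENSMUSG00000053044.8, chromosome 6, 71322788 to 71337494, plus strand), the beta chain of the dimer found on cytotoxic T cells, had 3.05 and 5.49 CPM in HET, against 0.875 CPM in WT 1 and 0.570 in the library labelled WT 2. Both WT libraries were low for Cd8b1, and its log2 fold change of 2.55 ± 0.70 (SE) was 2.27 ± 0.78 without the library labelled WT 2. Cd8b1 and Cd8a lie 35933 bases apart on the same strand.

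In 7 of the 9 genes both HET values lay above both WT values, and 19.6% of the 21607 genes tested had that order. In 7 of the 9, all but Lck and Cd4, both HET values lay above WT 1, as in 33.8% of all genes tested. In 8 of the 9, all but Lck, both lay above the library labelled WT 2, as in 43.4% of all genes, and the same 8 had their lowest value in that library, as in 38.1% of all genes. The 9 log2 fold changes ran from 0.88 for Lck to 3.79 for Cd3g, with a median of 1.97, and the median of all genes tested was 0.04. The filter on low counts asked for at least 0.721 CPM of total counts in 2 libraries. The 9 genes passed it in both HET libraries, whereas 3 (Cd3d, Cd3e and Lck) reached it in both WT libraries, 5 in 1 WT library and Cd247 in neither. These counts come from the contrast with which the genes were proposed, and nothing is read from them. The median of the 9 genes was 1.43 when the library labelled WT 2 was left out, and 2.88 when WT 1 was.

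**Figure D2:**
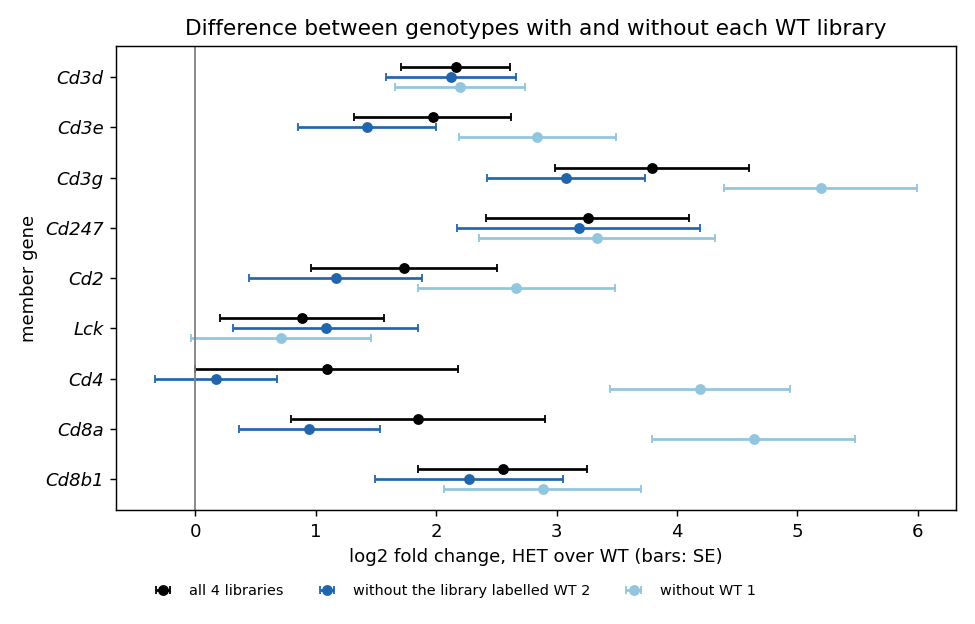
Log2 fold change of HET over WT for the 9 genes, with SE bars, in all 4 libraries and with either WT library left out. Cd3d and Cd247 stay near 2.16 and 3.26 in all 3 fits, while Cd4 lies at 0.17 without the library labelled WT 2 and at 4.19 without WT 1.

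Against WT 1 alone, the library whose Ptprc level was near that of the HET libraries, the HET mean was higher by 1.13-fold for Cd4, the smallest value of the 9 genes, and by 1.93-fold for Cd8a. It was higher by 2.12-fold for Lck, 2.24-fold for Cd2 and 2.69-fold for Cd3e, and by 4.37-fold for Cd3d, 4.88-fold for Cd8b1 and 8.51-fold for Cd3g. The largest value, 9.39-fold, was that of Cd247 and rests on 3 counts in WT 1. The receptor chains and the coreceptors were thus not separate by gene, since Cd8b1 lay above Cd3d and Cd3e. The summed level of Cd3d, Cd3e, Cd3g and Cd247 was 29.2 CPM in HET 1 and 30.6 in HET 2, against 6.76 CPM in WT 1 and 4.06 in the library labelled WT 2. The mean of HET 1 and HET 2 was thus 4.42-fold above WT 1. The summed level of Cd4, Cd8a and Cd8b1 was 15.1 and 20.5 CPM in HET, against 10.8 CPM in WT 1 and 1.21 in the library labelled WT 2, so that the HET mean was 1.64-fold above WT 1. Cd4 gave 89 of the 136 coreceptor counts in WT 1. Between the WT libraries the coreceptor sum differed by 8.93-fold and the sum of CD3 and zeta chains by 1.67-fold. By gene, WT 1 exceeded the library labelled WT 2 by 16.6-fold for Cd4 and by 1.05-fold for Cd3d. Cd8a had 36 counts in WT 1 and 3 in the library labelled WT 2.

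Shares within a library do not depend on scaling between libraries. The 4 CD3 and zeta chain genes took 54.8% of the counts of the 9 genes in HET 1 (exact 95% binomial interval 51.3% to 58.3%) and 46.2% in HET 2 (42.9% to 49.6%), against 29.2% in WT 1 (24.05% to 34.8%) and 37.7% in the library labelled WT 2 (30.0% to 46.0%). Both HET shares were above both WT shares, with intervals apart from WT 1 and, for HET 2, overlapping that of the library labelled WT 2. Cd4 took 12.7% and 13.9% in HET 1 and HET 2, against 30.6% in WT 1 and 3.97% in the library labelled WT 2, so the WT libraries lay on either side of HET. Lck took 6.82% and 18.5% in HET, against 16.2% in WT 1 and 45.0% in the library labelled WT 2. In that library the 68 counts of Lck were the most abundant of the 151 counts over the 9 genes.

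Within the coreceptors, Cd8a took 43.8% of the joint counts of Cd8a and Cd4 in HET 1 (interval 36.5% to 51.3%) and 38.6% in HET 2 (31.9% to 45.7%), against 28.8% in WT 1 (21.1% to 37.6%) and 33.3% in the library labelled WT 2, where only 9 counts were available (7.49% to 70.1%). Both HET shares were above both WT shares, and no test was made of the difference. Cd8b1 took 36.7% and 48.7% of the joint counts of Cd8b1 and Cd8a in HET 1 and HET 2, against 23.4% in WT 1 (interval 12.3% to 38.0%) and 72.7% of 11 counts in the library labelled WT 2 (39.0% to 94.0%). The WT libraries lay on either side of HET.

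**Figure D3:**
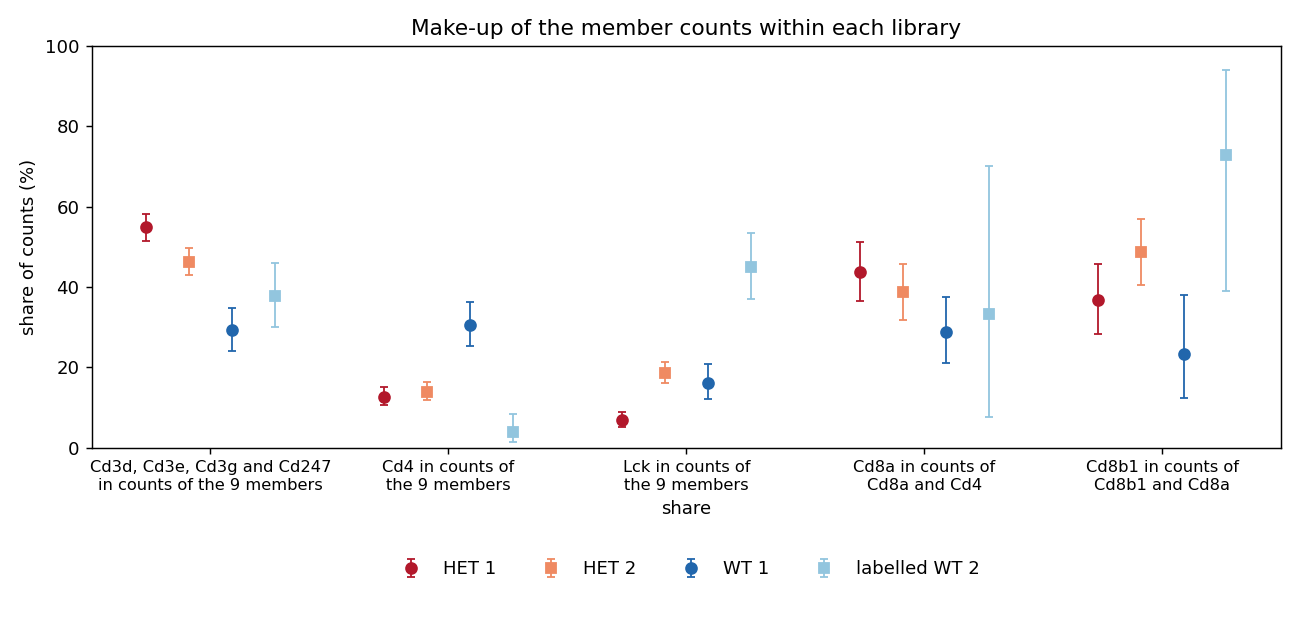
Shares of counts within each library, in percent, with exact 95% binomial intervals, for the CD3 and zeta chains, Cd4 and Lck among the 9 genes and for the coreceptor pairs. CD3 and zeta chains take 54.8% and 46.2% in HET 1 and HET 2, against 29.2% in WT 1 and 37.7% in the library labelled WT 2.

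Levels can be compared between genes only per length. On the scale of CPM per kilobase of merged exons, Cd3d was the most abundant of the 9 genes in HET, at 6.51 ± 0.51 (SD, n = 2), against 1.45 ± 0.05 in WT. Cd8b1, Lck, Cd3g, Cd2, Cd4, Cd3e and Cd8a followed in HET between 2.88 ± 1.16 for Cd8b1 and 1.52 ± 0.10 for Cd8a, and neighbours in that order differed by less than the larger of their SDs, except Cd3e (1.89 ± 0.31) and Cd8a. Cd247 was lowest in HET at 0.420 ± 0.043, against 0.0424 ± 0.0033 in WT. In WT, Lck had the highest level per kilobase at 1.47 ± 0.27, next to Cd3d, from which it differed by less than its spread. Cd4 followed in WT at 0.931 ± 1.17, an SD larger than the mean, and the other 5 genes above Cd247 lay between 0.179 ± 0.160 for Cd3g and 0.710 ± 0.48 for Cd2. The lengths are those of all annotated exons together, so a gene with long exons that are rarely used is understated.

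The variable receptor chains themselves were read through a list of 7 constant genes. The constant genes of the alpha chain (Trac), the beta chain (Trbc1 and Trbc2) and the delta chain (Trdc) passed the filter, and for each of the 4 both HET values lay above both WT values, an order found in 19.6% of all genes tested. Of the 4, 3 reached the filter in fewer than 2 WT libraries, so that they passed mainly through HET. Trac had 3.70 and 6.31 CPM in HET 1 and HET 2, against 0.716 CPM in WT 1 and 0.783 in the library labelled WT 2 (log2 fold change 2.72 ± 0.65, SE). Trbc2 had 6.04 and 4.01 CPM in HET, against 1.03 CPM in WT 1 and 2.56 in the library labelled WT 2, and Trbc1 had 2.21 and 2.67 CPM in HET, against 0.716 and 0.285 CPM. The Trbc genes are near-identical, so the division of counts between them is uncertain. Trdc, the mark of gamma-delta T cells, had 24 and 33 counts in HET, against 3 and 3 counts in WT. Tcrg-C1, Tcrg-C2 and Tcrg-C4, the gamma chain constant genes on the list, did not pass the filter. Summed over the 7 genes the constant regions stood at 17.1 and 16.9 CPM in HET, against 3.42 CPM in WT 1 and 4.06 in the library labelled WT 2. Both WT sums were low, as for the CD3 and zeta chains.

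No gene, and so none of the 9, passed the edgeR quasi-likelihood test of HET over WT at a Benjamini-Hochberg adjusted p under 0.05 (0 of 21607, 0%), and 817 genes (3.78%) had an unadjusted p under 0.05. Across 6 lists of T cell genes other than the 9, 66 of 75 genes were tested and 0 passed in edgeR, in limma-voom or in DESeq2. In edgeR 13 of the 66 were higher and 1 was lower at an unadjusted p under 0.05, against 1.95% and 1.83% of all genes tested. Both HET libraries were above both WT libraries for 37 of the 66 and below both for 2, against 19.6% and 15.9% of all genes tested. The median log2 fold change was 1.14 over the 66 genes, and 0.63 without the library labelled WT 2, where the median of all genes was 0.02. Of the 66, 33 reached the filter in fewer than 2 WT libraries, against 4844 of all 21607 genes, and a gene that passes only through HET had to be higher there. Under other settings, from which nothing is read of the 9 genes, DESeq2 called 2 of them (Cd3d and Cd3g) and 0.62% of all genes, edgeR without a filter called Cd3g and 0.752% of all genes, and edgeR without WT 1 called 3 (Cd3g, Cd4 and Cd8a) and 3.04% of all genes. Without the library labelled WT 2, edgeR called 0 of the 9 and 0.0417% of all genes.

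Proximal signalling genes, which carry the signal from the receptor inward, had a median log2 fold change of 1.30 over 18 tested genes of 20 (0.73 without the library labelled WT 2). Both HET values lay above both WT values for 11 of the 18 and below both for 1, against 19.6% and 15.9% of all genes tested. Of the 18, 10 reached the filter in fewer than 2 WT libraries. The most abundant of them had levels unlike those of the CD3 chains. Plcg1, a phospholipase C used by many cell types, had 81.3 and 98.2 CPM in HET 1 and HET 2, against 73.3 CPM in WT 1 and 109 in the library labelled WT 2. Fyn, a kinase related to Lck with a wide range of expression, had 43.0 and 36.9 CPM in HET, against 44.5 and 73.7 CPM in WT. Nfatc2 and Vav1, a transcription factor and a guanine nucleotide exchange factor, had log2 fold changes of 0.04 and 1.10, and both overlapped between genotypes. Zap70, the kinase that binds the phosphorylated CD3 and zeta chains, was named after its values were seen. Zap70 had 3.18 and 2.23 CPM in HET, against 0.477 CPM in WT 1 and 0.356 in the library labelled WT 2. It did not pass over all genes tested.

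Costimulatory and adhesion genes had a median log2 fold change of 1.93 over 12 tested genes of 12, and 1.13 without the library labelled WT 2. Both HET values were above both WT values for 10 of them, against 19.6% of all genes tested, and 9 of the 12 reached the filter in fewer than 2 WT libraries. Spn, which encodes the sialophorin CD43, had 25.1 and 26.6 CPM in HET 1 and HET 2, against 15.8 CPM in WT 1 and 18.7 in the library labelled WT 2. Itgal, the alpha chain of the integrin LFA-1, had 11.7 and 15.8 CPM in HET, against 11.6 CPM in WT 1 and 0.926 in the library labelled WT 2, so HET 1 and WT 1 were close. Slamf6, a receptor of the SLAM family, had a log2 fold change of 1.38 ± 0.63 (SE). Cd48, the ligand of CD2, overlapped between genotypes with 61 and 37 counts in HET, against 37 in WT 1 and 2 in the library labelled WT 2. Checkpoint receptors had a median of 0.59 over 9 tested genes of 10, and 0.21 without the library labelled WT 2. Havcr2, which encodes TIM-3 and is also made by macrophages and dendritic cells, had 20.7 and 6.83 CPM in HET, against 17.1 CPM in WT 1 and 1.28 in the library labelled WT 2. Tnfrsf9, which encodes the costimulatory receptor 4-1BB, was the 1 gene of the 6 lists lower at an unadjusted p under 0.05, with 3.96 and 2.97 CPM in HET, against 11.2 and 7.05 CPM in WT. Tnfrsf18 and Tnfrsf4, which encode GITR and OX40, had log2 fold changes of -0.36 and 0.38, and both overlapped between genotypes.

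T lineage transcription factors had a median log2 fold change of 0.53 over 11 tested genes of 11. Both HET values lay above both WT values for 5 of them, against 19.6% of all genes tested, and 6 overlapped. Their 4 most abundant genes, Ets1, Gata3, Zbtb7b and Tcf7, all overlapped between genotypes. Gata3, which is also a luminal mammary factor, had 67.1 and 91.6 CPM in HET 1 and HET 2, against 69.1 CPM in WT 1 and 47.0 in the library labelled WT 2. Ets1, Zbtb7b and Tcf7 had log2 fold changes of 0.01, -0.38 and 0.31. Cytokines and cytokine receptors had a median of 1.07 over 12 tested genes of 15, and 0.22 without the library labelled WT 2. Among their most abundant genes, Il18r1 and Tnf overlapped between genotypes, at log2 fold changes of -0.24 and -0.48. S1pr1, the receptor by which T cells leave lymphoid tissue and which endothelium also makes, had 19.8 and 21.7 CPM in HET, against 17.1 CPM in WT 1 and 2.28 in the library labelled WT 2.

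**Figure D4:**
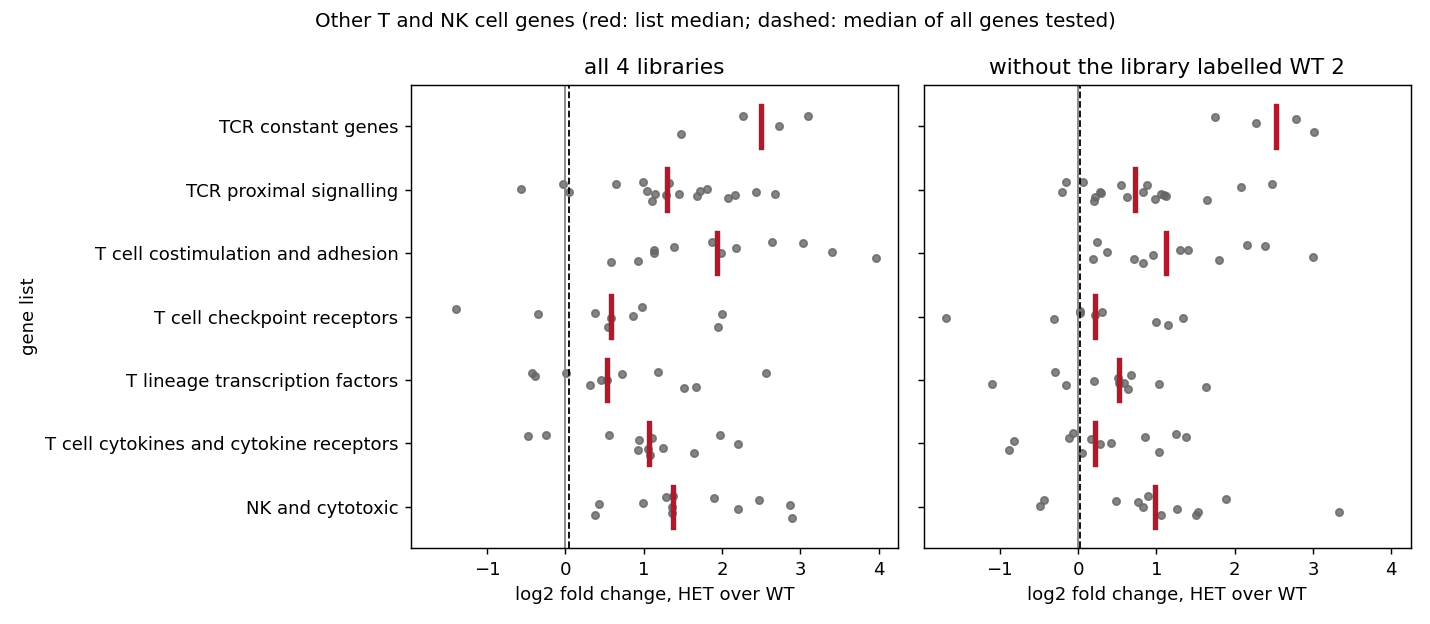
Log2 fold change of HET over WT for each tested gene of 6 T cell lists and the NK and cytotoxic list, in all 4 libraries (left) and without the library labelled WT 2 (right), with points spread vertically for clarity. The median of the constant receptor genes is 2.50 on the left and 2.53 on the right, while that of cytokines and their receptors is 1.07 and 0.22.

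Markers of other cell types were read beside the T cell genes. NK and cytotoxic genes, some of which CD8 T cells also make, were tested for 12 of 15 genes, with a median log2 fold change of 1.37 (0.98 without the library labelled WT 2) and 10 higher in both HET libraries, against 19.6% of all genes tested. Of the 12, 10 reached the filter in fewer than 2 WT libraries, so that they passed mainly through HET. Their sum was 29.5 and 37.2 CPM in HET 1 and HET 2, against 18.4 CPM in WT 1 and 5.56 in the library labelled WT 2. Ccl5, a chemokine of cytotoxic lymphocytes, had 6.43 and 11.4 CPM in HET, against 5.25 and 2.07 CPM in WT. Klrk1, the receptor NKG2D, had 4.22 and 4.08 CPM in HET, against 1.43 and 0.071 CPM, the last resting on 1 count. Ctsw, a protease of cytotoxic lymphocytes, had a log2 fold change of 0.99 ± 0.66 (SE). Eomes, a transcription factor of cytotoxic lymphocytes, had 39 and 59 counts in HET, against 18 in WT 1 and 1 in the library labelled WT 2. Of the 15 genes, 5 were at 0 in the library labelled WT 2 and 0 in WT 1.

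Macrophage markers in WT 1 lay between the HET libraries. Their sum over 15 genes was 1121 CPM in HET 1 and 724 in HET 2, against 1047 CPM in WT 1 and 102 in the library labelled WT 2, so the HET mean was 0.881 of the WT 1 level. All 15 were lowest in the library labelled WT 2, as were 38.1% of all genes tested. For 1 of the 15 both HET values lay above both WT values, against 19.6% of all genes tested. The dendritic cell list summed to 84.5 and 79.4 CPM in HET, against 71.4 CPM in WT 1 and 24.1 in the library labelled WT 2. B cell markers summed to 19.0 CPM in HET 1 and 49.9 in HET 2, against 11.9 CPM in WT 1 and 14.2 in the library labelled WT 2. Fcer2a alone gave 10.5 of the 14.2 CPM in that library. It had 3.82 CPM in WT 1, and 3.31 and 3.93 CPM in HET 1 and HET 2. Endothelial markers summed to 330 and 534 CPM in HET, against 371 CPM in WT 1 and 74.0 in the library labelled WT 2. Neutrophil markers summed to 25.3 and 31.8 CPM in HET, against 30.7 CPM in WT 1 and 6.70 in the library labelled WT 2. Erythroid markers summed to 6.17 and 16.1 CPM in HET, against 6.60 CPM in WT 1 and 2.07 in the library labelled WT 2. The part of the sort and of other leukocytes in the T cell differences was not tested.

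**Figure D5:**
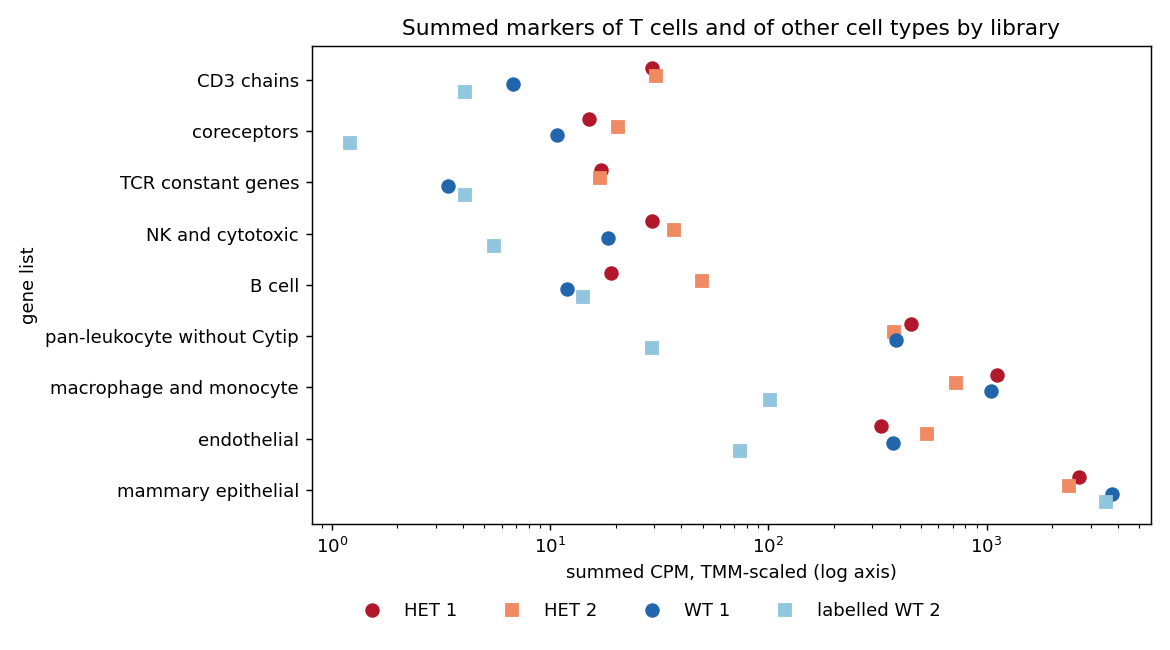
Summed CPM (TMM-scaled, log axis) of marker lists in each library. CD3 and zeta chains and constant receptor genes are low in both WT libraries, while macrophage markers and pan-leukocyte markers without Cytip in WT 1 lie at HET levels and are low in the library labelled WT 2 alone.

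The 9 genes were also set against all leukocyte RNA of the same library. Per unit of Ptprc the summed level of the 9 genes was 0.726 in HET 1 and 1.00 in HET 2, against 0.373 in WT 1 and 3.77 in the library labelled WT 2. HET lay above WT 1 and below the other library, in which Ptprc rested on 40 counts. Against 13 pan-leukocyte markers the ratios were 0.102 and 0.165 in HET, against 0.0572 in WT 1 and 0.0719 in the library labelled WT 2, a difference of 1.02 on the log2 scale. That difference ended when Cytip was left out of the markers (-0.045), since Cytip alone gave 120 of 150 CPM in the library labelled WT 2. No order between genotypes can therefore be given for T cell RNA per leukocyte RNA, while both HET libraries were above WT 1 with each of the 4 denominators, which also included 15 macrophage markers.

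By root mean square distance over the 4 libraries, the 6 genes nearest to the mean profile of the 9 members, out of 18917 ranked, were A630001G21Rik, Gm10044, Trbc1, Myh8, C130074G19Rik and Gm21962. The nearest, A630001G21Rik, lay 0.09 log2 units from the mean profile, and Trbc1 lay 0.10 units from it. A630001G21Rik had 6.10 and 6.83 CPM in HET 1 and HET 2, against 2.47 CPM in WT 1 and 0.855 in the library labelled WT 2. Among the members, Cd3e was nearest to their mean at 0.08 units and Lck farthest at 1.09 units. With 4 libraries many genes share a profile, and the list is a description.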

How the data were processed

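RNA of 4 tumours was sequenced, 2 HET and 2 WT, grouped by the source name in the labels. The deposited values are estimated counts per gene, whole numbers that were not scaled, and the submitters' processing notes name Salmon and the build GRCm38.p5. Neither the Salmon version nor the annotation or strandedness is stated there (not given in the sources used here). Among 51826 rows, 51633 matched GENCODE M21, which gave symbols, coordinates and exon lengths. Every row names a gene.

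The fit of HET over WT used edgeR 4.0.16 under R 4.3.3, with filterByExpr, TMM scaling and the quasi-likelihood F test, genotype as the only term, and Benjamini-Hochberg adjustment over 21607 genes. The common biological coefficient of variation was 0.46. The fit was tested on simulated data. A two-sided exact permutation test of 2 libraries per genotype has a smallest p of 0.33. Totals were 14582943 and 12695132 counts in HET 1 and HET 2, and 13152252 and 15307939 in WT 1 and WT 2. A count of 0 allows up to 3 counts, or 0.206, 0.236, 0.228 and 0.196 CPM of totals in that order. Intervals and floors cover counting error only. Members and lists were chosen with earlier results of these data known. Named beside the members were the up to 4 genes of highest mean CPM of each T and NK cell list, and the 6 genes nearest in profile; 1 gene that this rule names is not reported here. Other scalings, filters, DESeq2 1.42.0, limma-voom (limma 3.58.1) and leaving out each library were alternatives. Promoter windows come from RefSeq.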

Additional observations from a re-analysis of the deposited data

How the results depend on the processing

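The median log2 fold change of the 9 genes was above 0 under every alternative run, between 1.91 with no filter beyond 1 count and 2.21 with limma-voom apart from leaving out libraries, where it lay between 1.43 and 2.88. Without Lck, an alternative chosen after seeing the data, it was 2.07. Total counts without TMM moved the median of all genes by the most, to 0.22, and that of the 9 genes to 2.14. Of 99 recomputed log2 fold changes of single members, 86 moved by less than the spread between replicates, 12 by more and 1, that of Lck without HET 2, changed sign (-0.31). Leaving out 1 library moved Lck between -0.31 and 1.45.

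Over all genes, 324 were called with no filter beyond 1 count and 134 by DESeq2, and between 0 and 657 when 1 library was left out, the most without WT 1. Members among these calls were 1 (Cd3g), 2 (Cd3d and Cd3g) and, without WT 1, 3 (Cd3g, Cd4 and Cd8a), from which nothing is read. Of the T cell lists, 1 gene (Icos) was called with no filter and between 0 and 14 when 1 library was left out, 14 of them without WT 1 and 0 without the library labelled WT 2. Where 1 library remained in a genotype, its spread was taken from the other. The log2 ratio to pan-leukocyte markers was 1.62 with CD3 and zeta chains alone, -0.48 with Ptprc alone and, chosen after seeing the data, -0.045 without Cytip. For the CD3 and zeta chains the same changes gave 0.12 with Ptprc and 0.56 without Cytip, with HET below the library labelled WT 2 in both (-1.73 and -0.93). No paired analysis was possible because the labels give no replicate numbers shared by the genotypes. Depth limits most the members with 3 counts in a library.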

Other observations

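Variable segments of the receptor genes, which differ between T cell clones, were read apart from the constant genes. Of 144 segments in the table, 49 had a count in HET 1 and 60 in HET 2, against 40 in WT 1 and 17 in the library labelled WT 2. Their counts summed to 221 and 182 in HET 1 and HET 2, against 109 in WT 1 and 34 in the library labelled WT 2. Scaled, the sums were 14.3 and 13.5 CPM in HET, against 8.67 CPM in WT 1 and 2.42 in the library labelled WT 2. WT 1 thus lay nearer to HET than for the 7 constant genes, which summed to 17.1 and 16.9 CPM in HET and 3.42 in WT 1. The segment with the most counts was a different one in every library, namely Tcrg-V6 in HET 1 (28 counts), Trbv3 in HET 2 (17), Trav6n-5 in WT 1 (12) and Trbv23 in the library labelled WT 2 (4). Members of these families are alike in sequence, so the split of estimated counts between segments is uncertain.

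Gamma chain constant genes had few counts and were uneven between the HET libraries. Tcrg-C1 had 28 counts in HET 1 and 4 in HET 2, against 4 in WT 1 and 3 in the library labelled WT 2. Tcrg-C2 had 26 and 9 counts in HET, against 3 and 0 in WT.

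A B cell gene was uneven between the HET libraries. Ms4a1, which encodes the B cell surface protein CD20, had 1.56 CPM in HET 1 and 7.94 in HET 2, against 1.19 CPM in WT 1 and 0.285 in the library labelled WT 2. Ms4a1 was chosen after its values were seen, and the B cell list as a whole was not high in HET 2 alone. Of its 10 genes 7 were tested, with a median log2 fold change of 1.98. Leaving out the library labelled WT 2 gave 1.72. For 5 of the 7 both HET values lay above both WT values, against 19.6% of all genes tested, and 2 overlapped. Of the 7, 4 reached the filter in fewer than 2 WT libraries.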
